A study of Mus musculus with 21 samples.

Results

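The untreated arm of a mouse muscle study compared skeletal muscle labelled as a knockout of 3 FoxO transcription factors with muscle of floxed littermates, by RNA sequencing. It comprised 10 of the series' 21 libraries, chosen from the titles, genotype and drug labels: 6 triple-knockout (TKO) libraries and 4 floxed control libraries, none of which received streptozotocin (STZ). The TKO mice carried floxed alleles of Foxo1, Foxo3 and Foxo4 and a Cre recombinase driven by the ACTA1 (skeletal actin) promoter, so that the deletion was confined by design to skeletal muscle fibres. The controls were littermates with the same floxed alleles, and all mice were on a mixed background of C57Blk6, C57Blk6J and 129 strains. The labels give no drug for these animals, and the study's text describes citrate buffer alone as the control for STZ. The other 11 libraries, 6 STZ TKO and 5 STZ floxed, came from mice made diabetic with 150 mg/kg STZ, followed in females by 75 mg/kg on day 3, and kept only if random blood glucose stayed above 300 mg/dL. They are used below to ask whether the same genes differed in diabetic muscle. RNA came from quadriceps and gastrocnemius powdered together, and the labels give neither age nor sex. In all 21 libraries the female transcript Xist had at most 2 counts and the Y-linked Ddx3y at least 150 counts. By these counts all 21 libraries, with and without STZ, came from male muscle.

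FoxO proteins are forkhead transcription factors that insulin and growth factor signalling keeps out of the nucleus through phosphorylation by Akt. When that signal falls, they enter the nucleus, bind a short recognition motif and activate genes of protein breakdown, autophagy, stress resistance and fasting metabolism. In muscle they are best known for driving Fbxo32 and Trim63, which encode the ubiquitin ligases atrogin-1 and MuRF1, during wasting.

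Total counts ranged from 2951290 to 6014870 in TKO and from 4176132 to 7687823 in floxed libraries. Genes that define muscle fibres were abundant in all 10: Acta1 had 18028 to 32950 CPM (read counts scaled to a common library size) in TKO and 27312 to 31598 in floxed libraries. Pygm, the muscle glycogen phosphorylase, was the exception among 12 fibre markers, with 0 to 2 counts in each of the 10 libraries. In a principal component analysis of the 10 libraries the first component held 33.7% of the variance, and TKO libraries 20 (70.2) and 6 (43.8) lay farthest from the rest, which lay between -33.0 and 14.5. Library 6 was also the shallowest. No label ties a library to an animal of its own, and the p-values below therefore measure the spread between libraries, which may be partly technical. Values per library follow the order of the library numbers, 2, 6, 10, 13, 16 and 20 for TKO and 1, 5, 9 and 19 for floxed.

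Loss of the targeted transcripts was plain for Foxo4 and Foxo1 but not for Foxo3. Foxo4 lies on the X chromosome (101254528 to 101260873, build GRCm38), and it had 5.69, 7.37, 3.87, 5.78, 6.41 and 8.29 CPM in TKO libraries, against 166, 195, 153 and 124 CPM in floxed libraries. The groups stood far apart, and Foxo4 fell by 4.66 ± 0.23 (SE) on the log2 scale (edgeR quasi-likelihood test, Benjamini-Hochberg adjusted p = 3.99e-12). Foxo1 (chromosome 3, 52268336 to 52353221) had 14.1, 7.00, 14.9, 17.0, 16.9 and 17.7 CPM in TKO libraries, against 46.8, 67.4, 113 and 48.7 CPM in floxed libraries. It fell too, with a log2 fold change of -2.22 ± 0.30 (adjusted p = 0.00028). The groups did not overlap, and library 6 was the lowest. Foxo3 (chromosome 10, 42181841 to 42276755) had 122, 84.0, 105, 95.7, 97.0 and 73.7 CPM in TKO libraries, against 71.9, 89.4, 64.1 and 67.1 CPM in floxed libraries. Its groups overlapped and its log2 fold change was 0.40 ± 0.25 (adjusted p = 0.616). These counts cover whole genes, so they do not show whether a deleted part of the Foxo3 transcript was missing. Whole muscle also holds other cell types that the Cre does not reach, and in such tissue fewer cells of a type cannot be told apart from less RNA per cell. Foxo6, the fourth family member and not a target, had 7.25 ± 2.81 CPM in TKO (SD, n = 6) and 4.34 ± 1.88 CPM in floxed libraries (n = 4), with overlapping groups (log2 fold change 0.72 ± 0.46, adjusted p = 0.625).

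Across 12658 tested genes, 65 (0.514%) passed an adjusted p of 0.05: 46 were lower in TKO muscle (0.363% of genes tested) and 19 were higher (0.15%). At an unadjusted p under 0.05 there were 1452 genes. TKO and floxed libraries did not overlap for 62 of the 65 genes, against 629 (4.97%) of all tested genes. The exceptions were 2610035D17Rik, Ankrd23 and Wfikkn2. The choice of the 65 genes from these same libraries largely fixed this separation. Of the 65 genes, 58 were protein coding. The lowered genes had a median log2 fold change of -1.53 and the raised genes one of 2.12, beside a median of 0.00 over all tested genes. The count depended on single libraries: 40 genes passed without floxed library 1, 32 without floxed library 5, 35 without floxed library 9, 43 without TKO library 16 and 41 without TKO library 20, against 105 without TKO library 13 and 102 without STZ floxed library 17. Without libraries 6 and 20 together 27 genes passed, all among the 65 (20 of the 46 lowered and 7 of the 19 raised), and 38 of the 65 lost the call. Of the genes given with fold changes or levels below, those that lost it had adjusted p values without these libraries of 0.0534 (Scn3b), 0.0671 (Egf and Stbd1), 0.0903 (Pfkfb3), 0.0941 (Avil), 0.0993 (Sort1), 0.103 (Gm38158 and Atp9a), 0.114 (Dpysl5), 0.126 (Klf15), 0.152 (Odc1), 0.162 (Wfikkn2), 0.182 (Zfand5 and Pnpla7), 0.203 (Ankrd23 and Nadk2), 0.207 (Snph) and 0.240 (Gm15943), besides the 5 immune genes whose values stand beside them. A core of 28 genes kept the call in each of the 21 fits that left out 1 library, and all 65 kept their sign in every alternative tried. Only 10 of these fits left out a TKO or floxed library. The other 11 left out an STZ library, which is not compared here and enters only through the shared fit. Numbers of fits out of 21 given below count both kinds.

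The lowered genes were searched for the FoxO recognition core, spelled TGTTTAC or its reverse complement GTAAACA, in promoter windows from RefSeq (GRCm38.p6). A window runs from 250 bases before to 50 bases after an annotated transcription start. Some genes have several starts (32851 windows for 27025 genes), and a gene counted as holding the core if any of its windows did. Genes with more windows had more chances to hold it, and the part of this in the shares below was not tested. The core is shared by other forkhead factors. Of the 46 lowered genes, 38 had a window, and 8 of these (21.1%) held the core, against 297 of 9698 tested genes with a window (3.06%). None of the 10 raised genes with a window held it, a set too small to compare with that share. In diabetic muscle the core stood in 26 of 228 genes lower in STZ TKO libraries (11.4%) and in 2 of 231 genes higher there (0.866%). The 228 include genes already counted above, and among those not called lower without STZ the core stood in 19 of 192 (9.90%). The longer form TTGTTTAC (reverse complement GTAAACAA), which contains the core, stood in 5 of the 38 lowered genes (13.2%) and in 91 of the 9698 (0.938%). The windows of the lowered genes had a median GC content of 53.3%, against 60.7% for all tested genes, and the part of base composition in these shares was not tested. The 8 genes were Ankrd23, Egf, Tmem140, 9330159F19Rik, Tspan8, Kctd20, Pnpla7 and Plekhb1. Some of the starts used lie inside the annotated gene, farthest for Egf, whose gene spans chr3:129677565-129755316 on the minus strand. The 8 genes held 9 matches, and 7 began before the start, the Tmem140 match at 5 bases running across it. Those 7 are shown with 15 bases on each side, on the strand of the gene and with the core in capitals, because they are the letters that the shares above count.
Tspan8, 18 bases before the start, chr10:115817251-115817287, plus strand: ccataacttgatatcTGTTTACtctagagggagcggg
Ankrd23, 31 bases before the start, chr1:36536566-36536602, minus strand: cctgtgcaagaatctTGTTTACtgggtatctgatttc
Egf, 175 bases before the start, chr3:129725240-129725276, minus strand: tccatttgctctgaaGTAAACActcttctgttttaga
Tmem140, 116 bases before the start, chr6:34863015-34863051, plus strand: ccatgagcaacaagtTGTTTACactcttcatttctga
Tmem140, 5 bases before the start, chr6:34863126-34863162, plus strand: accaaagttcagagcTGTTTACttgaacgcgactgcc
9330159F19Rik, 88 bases before the start, chr10:29211540-29211576, plus strand: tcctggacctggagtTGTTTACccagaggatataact
Kctd20, 127 bases before the start, chr17:28953074-28953110, plus strand: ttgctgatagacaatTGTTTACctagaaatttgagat

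Of these, Tspan8 had the largest fall in expression, so the 250 bases before its start are given whole, with the core in capitals.
Tspan8 promoter, chr10:115817034-115817283, plus strand: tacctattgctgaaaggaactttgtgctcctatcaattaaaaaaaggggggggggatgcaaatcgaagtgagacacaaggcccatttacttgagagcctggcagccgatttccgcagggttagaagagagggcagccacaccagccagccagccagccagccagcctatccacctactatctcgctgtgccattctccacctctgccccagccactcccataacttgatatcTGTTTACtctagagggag
A match describes these letters only, and a gene without one may hold the core outside its window.

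**Figure D1:**
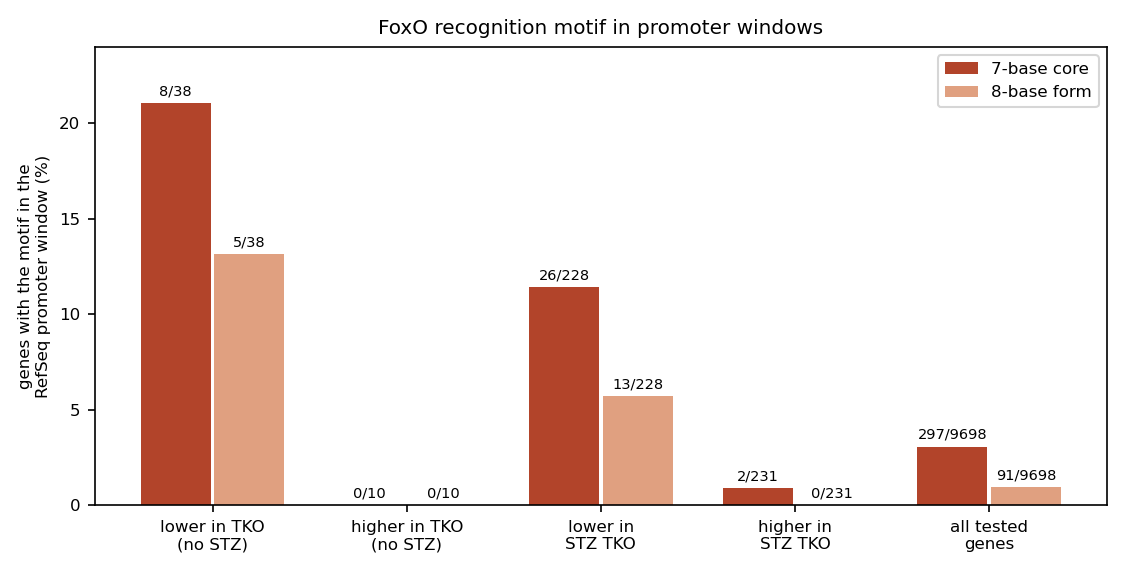
Share of genes with the 7-base FoxO core (dark) or the 8-base form (light) in any of their RefSeq promoter windows, in percent. The sets are genes lower or higher in TKO muscle without STZ, lower or higher in STZ TKO muscle, and all tested genes. The fractions above the bars are genes with the motif over genes with a window. The core stood in 8 of 38 genes lower in TKO muscle and in 297 of 9698 tested genes. The sets overlap: 43 of the 46 genes lower in TKO muscle were also lower in STZ TKO muscle.

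Among genes of insulin and growth signalling, Pik3ip1, a membrane protein that inhibits phosphatidylinositol 3-kinase, was the lowered gene with the smallest adjusted p after Foxo4. It had 12.6, 11.1, 10.1, 10.3, 10.2 and 7.42 CPM in TKO libraries, against 41.8, 82.7, 43.8 and 39.9 CPM in floxed libraries. The TKO values were close to each other and all below the floxed values, and the gene's log2 fold change was -2.34 ± 0.22 (adjusted p = 1.75e-06). Castor2, of the CASTOR family of amino acid sensors upstream of mTORC1, had 54.4 to 61.9 CPM in TKO and 99.7 to 149.7 CPM in floxed libraries. Its log2 fold change was -1.13 ± 0.19 (adjusted p = 0.00344). Slc43a1, a transporter of large neutral amino acids, had 5.99, 9.58, 5.36, 6.68, 6.10 and 6.11 CPM in TKO libraries, against 27.2, 39.0, 24.5 and 22.2 CPM in floxed libraries. Its log2 fold change was -2.09 ± 0.24 (adjusted p = 4.3e-05), with library 6 the highest of the TKO libraries. These 3 genes kept their call in each fit that left out 1 library. Egf, which encodes epidermal growth factor, fell as well, with 24.0 ± 9.39 CPM in TKO and 62.9 ± 12.3 CPM in floxed libraries (log2 fold change -1.39 ± 0.26, adjusted p = 0.00787). Wfikkn2, which encodes a secreted inhibitor of myostatin, had 9.89, 7.74, 5.96, 7.58, 5.79 and 4.36 CPM in TKO libraries, against 15.5, 22.6, 17.9 and 8.95 CPM in floxed libraries. The groups overlapped at floxed library 19, and its call (log2 fold change -1.24 ± 0.27, adjusted p = 0.033) held in 12 of the 21 fits, reaching an adjusted p of 0.164 without floxed library 5. Myostatin itself (Mstn) had 13.4 to 81.8 CPM in TKO and 55.4 to 86.4 CPM in floxed libraries (log2 fold change -0.53 ± 0.39, adjusted p = 0.697).

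Several lowered genes encode metabolic enzymes. Pfkfb3, which makes fructose 2,6-bisphosphate, an activator of glycolysis, had 48.0, 40.2, 34.3, 150.4, 92.1 and 35.8 CPM in TKO libraries, against 419, 720.3, 164 and 584 CPM in floxed libraries. The groups were separate by a narrow margin, between TKO library 13 and floxed library 9, and the log2 fold change was -2.81 ± 0.51 (adjusted p = 0.0074). Chac1, which breaks down glutathione and is a known target of the stress factor ATF4, had 7.19, 7.74, 6.26, 2.53, 3.44 and 3.64 CPM in TKO libraries, against 19.8, 70.2, 31.9 and 13.8 CPM in floxed libraries. This was a log2 fold change of -2.77 ± 0.42 (adjusted p = 0.00143). Odc1, the rate-limiting enzyme of polyamine synthesis, had 45.1 to 81.4 CPM in TKO and 115 to 161 CPM in floxed libraries. Its log2 fold change was -1.15 ± 0.25 (adjusted p = 0.0358), and the call held in 10 of the 21 fits, with an adjusted p of 0.144 without floxed library 5. Maob, monoamine oxidase B of the outer mitochondrial membrane, had 4.46 ± 1.19 CPM in TKO and 20.5 ± 6.05 CPM in floxed libraries (log2 fold change -2.19 ± 0.36, adjusted p = 0.00319). Prune1, a phosphatase of short polyphosphates, spread little within either group, with 50.7, 52.7, 47.1, 53.4, 53.5 and 41.2 CPM in TKO libraries, against 129, 141, 135 and 127 CPM in floxed libraries. Its log2 fold change was -1.42 ± 0.16 (adjusted p = 2.72e-05). Smaller falls were seen for Nadk2, the mitochondrial NAD kinase (-1.03 ± 0.22, adjusted p = 0.033), for Pnpla7, a lysophospholipase (-0.98 ± 0.22, adjusted p = 0.0424), and for Sort1, a sorting receptor of glucose transporter vesicles (-0.99 ± 0.21, adjusted p = 0.0277). Each of these 3 lost its call in some fits with 1 library left out, with adjusted p values of up to 0.140 (Nadk2, without floxed library 5), 0.200 (Pnpla7, without floxed library 5) and 0.107 (Sort1, without floxed library 9). The glucose transporter Slc2a4 had 1234, 1039, 959, 1168, 849.7 and 432 CPM in TKO libraries, against 1094, 1201, 926 and 921 CPM in floxed libraries. Apart from library 20 these values overlapped, and its log2 fold change of -0.13 ± 0.22 (adjusted p = 0.915) turned to 0.03 without that library.

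Other lowered genes encode membrane, sarcomere and nuclear proteins. Tspan8, a tetraspanin, had 13.2, 8.84, 8.05, 11.6, 12.7 and 2.18 CPM in TKO libraries, against 98.9, 92.4, 161 and 137 CPM in floxed libraries. Its log2 fold change was -3.71 ± 0.45 (adjusted p = 0.000107), with library 20 the lowest. Kcnab1, a regulatory subunit of voltage-gated potassium channels, had 2.10, 0.369, 1.79, 1.62, 1.56 and 1.02 CPM in TKO libraries, against 11.1, 23.1, 9.30 and 12.2 CPM in floxed libraries. The log2 fold change was -3.26 ± 0.49 (adjusted p = 0.00125). Lrrc2, a leucine-rich repeat protein, had 49.8 ± 11.8 CPM in TKO and 155 ± 31.8 CPM in floxed libraries (-1.64 ± 0.27, adjusted p = 0.00319). Ankrd23, a titin-associated ankyrin repeat protein, had 71.0, 42.0, 52.2, 33.8, 21.6 and 32.4 CPM in TKO libraries, against 144, 199.9, 126 and 70.0 CPM in floxed libraries. TKO library 2 just exceeded floxed library 19, and the call (-1.68 ± 0.37, adjusted p = 0.0358) held in 12 of the 21 fits, with an adjusted p of 0.168 without floxed library 5. Setd7, a lysine methyltransferase, had 126 to 382 CPM in TKO and 564 to 703 CPM in floxed libraries (-1.32 ± 0.24, adjusted p = 0.00734). Its gene lies 707.5 kb from Foxo1. Cbfb, the partner subunit of RUNX transcription factors, had 53.7 ± 11.8 CPM in TKO and 151 ± 26.4 CPM in floxed libraries (-1.49 ± 0.26, adjusted p = 0.00577). Ccrl2, an atypical chemokine receptor, had 1.81 to 4.38 CPM in TKO and 9.89 to 12.3 CPM in floxed libraries (-1.84 ± 0.31, adjusted p = 0.00382). Dpysl5 and Snph, better known from neurons, were lowered with log2 fold changes of -2.52 ± 0.56 (adjusted p = 0.0372) and -1.76 ± 0.40 (adjusted p = 0.0453), and with the run of library codes as a block their adjusted p values were 0.0572 and 0.0522. Leaving out 1 library brought them to 0.122 (Dpysl5, floxed library 5) and 0.168 (Snph, floxed library 19).

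Transcripts that are not protein coding were among the lowered genes too. Plet1os, which lies opposite Plet1, had 0.298 to 1.02 CPM in TKO and 6.13 to 7.24 CPM in floxed libraries (-3.27 ± 0.47, adjusted p = 0.000616). The pseudogene Btnl7-ps had 2 counts over the 6 TKO libraries and 39 over the 4 floxed libraries, a ratio of 0.0403 at equal depth with an exact 95% interval of 0.00471 to 0.156 that covers counting error only. Gm15943 overlaps Fbxo32 and Klhl38 on the opposite strand and had 0.145 to 0.903 CPM in TKO and 1.61 to 3.96 CPM in floxed libraries (-2.48 ± 0.56, adjusted p = 0.0394, up to 0.164 without floxed library 9). The strand setting of the read counting is not given, so reads of Gm15943 and Fbxo32 may not be told apart. Fbxo32 itself had 416, 230.0, 329.6, 411, 254 and 137 CPM in TKO libraries, against 405, 1159.6, 560.3 and 374 CPM in floxed libraries. These values overlapped (-1.08 ± 0.53, adjusted p = 0.452).

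Among the 19 raised genes, Mpp3 encodes a membrane scaffold protein. It had 80.3, 82.6, 109.7, 80.7, 64.3 and 70.8 CPM in TKO libraries, against 31.7, 40.4, 29.5 and 27.6 CPM in floxed libraries, and rose by 1.33 ± 0.22 on the log2 scale (adjusted p = 0.00352). Stbd1, which anchors glycogen to membranes, had 100.1 to 223 CPM in TKO and 54.7 to 78.4 CPM in floxed libraries (1.35 ± 0.25, adjusted p = 0.00787, and 0.0516 without floxed library 5). Ttc9, a tetratricopeptide repeat protein, had 32.1, 34.6, 34.6, 18.6, 19.9 and 59.0 CPM in TKO libraries, against 9.61, 13.9, 4.31 and 6.08 CPM in floxed libraries (1.99 ± 0.35, adjusted p = 0.00623). Tcf23, a basic helix-loop-helix protein, had 4.80, 6.27, 3.28, 4.15, 6.41 and 10.6 CPM in TKO libraries, against 0.836, 0.278, 0.517 and 0.716 CPM in floxed libraries. It rose by 3.23 ± 0.50 (adjusted p = 0.00142), with each TKO library above each floxed library. Scn3b, a sodium channel beta subunit, had 5.63 to 14.3 CPM in TKO and 2.23 to 3.34 CPM in floxed libraries (1.96 ± 0.37, adjusted p = 0.00963, and 0.0653 without floxed library 9). Ddah1, which breaks down an endogenous inhibitor of nitric oxide synthase, had 26.4, 21.4, 20.0, 25.3, 21.0 and 19.0 CPM in TKO libraries, against 9.05, 12.8, 8.78 and 11.6 CPM in floxed libraries (1.07 ± 0.21, adjusted p = 0.0169, and 0.107 without floxed library 9). The groups were separate for each of these 6 genes.

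**Figure D2:**
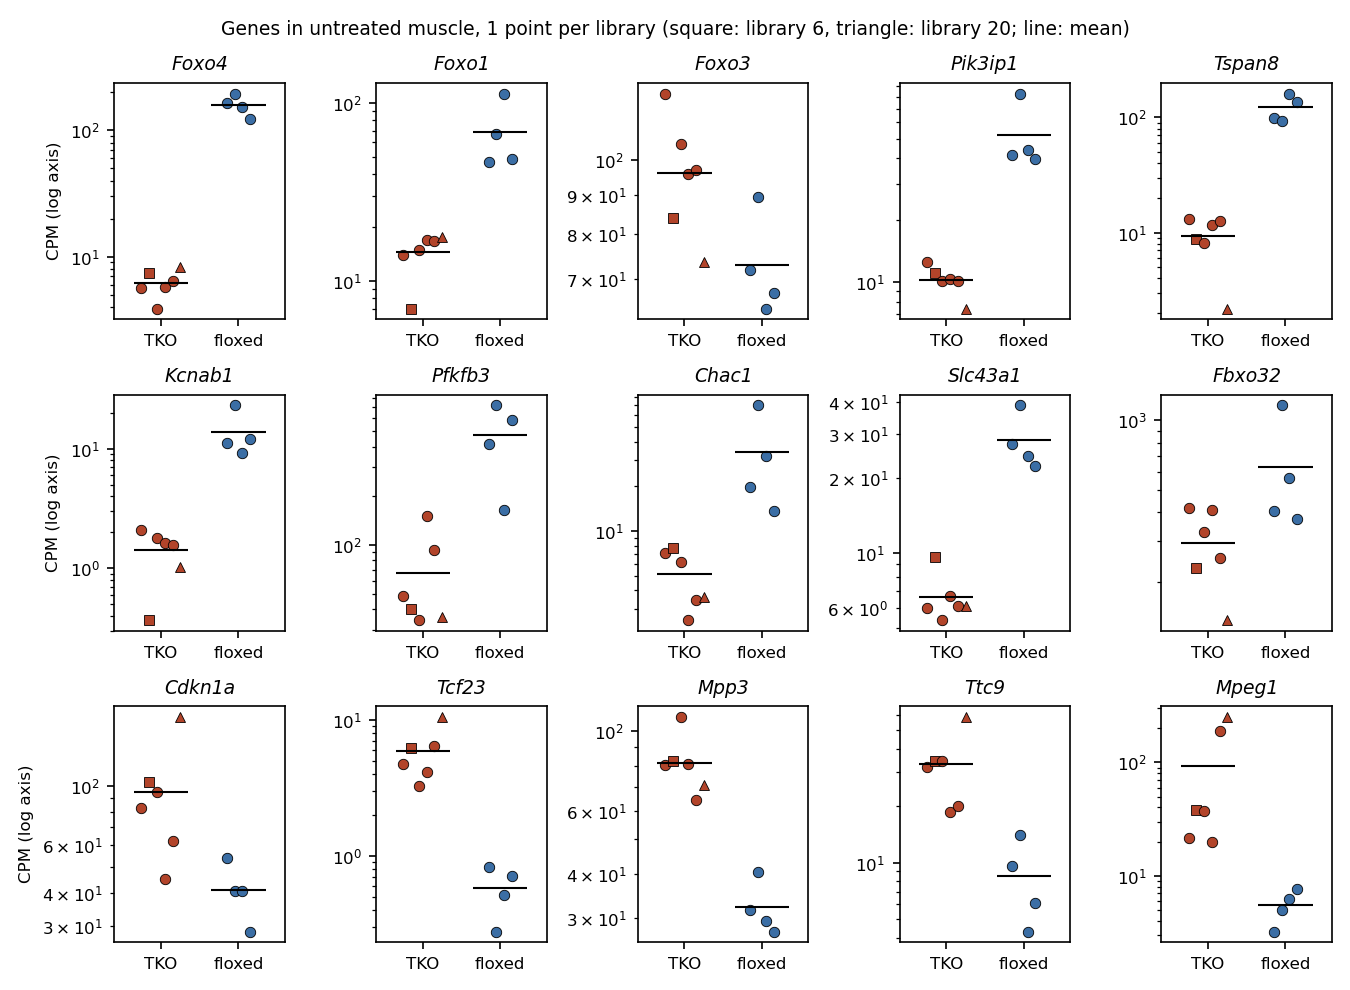
CPM of 15 genes in each untreated library (1 point a library, logarithmic axis, each panel with its own scale), TKO left and floxed right; horizontal lines are group means, the square is library 6 and the triangle library 20. Foxo4, Foxo1, Pik3ip1, Tspan8, Kcnab1, Pfkfb3, Chac1 and Slc43a1 were lower and Tcf23, Mpp3, Ttc9 and Mpeg1 higher in all 6 TKO libraries than in any floxed library, while the groups of Foxo3, Fbxo32 and Cdkn1a overlapped.

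Several other raised genes are known from immune cells or were nearly absent from floxed muscle, while others, such as Atp9a (24.0 to 45.9 CPM in floxed libraries) and Plcl1 (7.94 to 14.1 CPM), were neither. Chrna9, a subunit of nicotinic acetylcholine receptors, had 3.30, 3.69, 6.56, 0.722, 1.25 and 16.4 CPM in TKO libraries, against 0, 0, 0.172 and 0 CPM in floxed libraries (adjusted p = 0.00633). The group totals were 168 counts in TKO and 1 count in floxed libraries, a ratio of 132.0 at equal depth. Its exact 95% interval of 23.4 to 5244 covers counting error only and leaves out the spread between libraries. Library 20 stood well above the rest, with 16.4 CPM against 0.722 to 6.56 CPM in the other TKO libraries. Gm38098, annotated as a processed pseudogene 72.2 kb from Foxo1, had 85 counts in TKO and 1 count in floxed libraries (adjusted p = 0.00485). The ratio at equal depth was 66.8, with a 95% interval of 11.7 to 2669 that also covers counting error only. Mpeg1, the macrophage pore-forming protein perforin-2, had 21.6, 38.3, 37.0, 19.9, 188 and 253 CPM in TKO libraries, against 3.20, 5.01, 6.20 and 7.69 CPM in floxed libraries. It rose by 4.08 ± 0.89 (adjusted p = 0.0394), with the largest values in libraries 16 and 20, and the adjusted p was 0.142 without floxed library 5. Fcer1g, a signalling chain of Fc receptors, had 5.24 to 41.0 CPM in TKO and 2.23 to 4.83 CPM in floxed libraries (2.35 ± 0.50, adjusted p = 0.031, and 0.14 without floxed library 5). Lcp2, an adaptor of blood cells, had 1.62 to 9.16 CPM in TKO and 0.344 to 0.716 CPM in floxed libraries (3.13 ± 0.64, adjusted p = 0.021, and 0.107 without floxed library 9). Serpinb1a, an inhibitor of neutrophil proteases, had 5.42 to 61.4 CPM in TKO and 1.39 to 5.19 CPM in floxed libraries (2.99 ± 0.68, adjusted p = 0.0477, and 0.173 without floxed library 9). Masp1, a protease of the lectin pathway of complement, had 5.66 to 12.8 CPM in TKO and 0.689 to 2.86 CPM in floxed libraries (2.12 ± 0.44, adjusted p = 0.0243, and 0.121 without floxed library 9). Library 20 held the highest value for 11 of the 19 raised genes, and without libraries 6 and 20 the adjusted p values were 0.118 for Mpeg1, 0.19 for Fcer1g, 0.162 for Lcp2, 0.225 for Serpinb1a and 0.136 for Masp1.

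Macrophage markers were measured beside these genes, and 2 of them, Mpeg1 and Fcer1g, are among the raised genes already described. Of 15 tested markers of a list of 16, all had positive fold changes with a median of 2.13, beside 0.00 over all tested genes. Only these 2 of the 15 passed the test, against 0.15% of genes tested, and 9 of the 15 were higher without overlap, against 2.35% of all tested genes. Their mean log2 level, set to 0 in floxed libraries, was 1.07, 2.10, 1.08, 0.50, 2.04 and 3.10 in TKO libraries and between -0.15 and 0.14 in floxed libraries. Their summed CPM was 333 to 2052 in TKO and 193 to 262 in floxed libraries, and no marker was at 0 in any TKO library. Each TKO library stood above each floxed library, with library 13 nearest to them. Cd68, the lysosomal macrophage marker, had 3.60, 12.9, 5.96, 2.17, 20.3 and 20.6 CPM in TKO libraries, against 2.09, 1.39, 1.03 and 2.15 CPM in floxed libraries (2.70 ± 0.78, adjusted p = 0.113). Without libraries 6 and 20 the median of the list was 1.37. Only 3 of 15 lymphocyte and neutrophil markers were abundant enough to test, and their summed CPM was 7.76 to 64.4 in TKO and 3.62 to 4.83 in floxed libraries. The part of these cells in the raised immune genes was not tested.

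Library 20 also stood apart for genes of young or regenerating fibres. The mean level of 18 tested myogenic and regeneration genes was 2.46 in library 20, 0.19 to 0.68 in the other TKO libraries and -0.15 to 0.14 in floxed libraries. None of the 18 passed the test, where 0.514% of all tested genes did. The nearest was Myod1, the myogenic master factor, with 31.5 ± 18.4 CPM in TKO and 10.4 ± 1.74 CPM in floxed libraries (1.61 ± 0.39, adjusted p = 0.0638). Embryonic myosin (Myh3) had 201 ± 422 CPM in TKO and 5.70 ± 0.965 CPM in floxed libraries (5.15 ± 1.35, adjusted p = 0.0894), an SD larger than its mean. The median fold change of the list was 0.70 with all libraries and 0.24 without libraries 6 and 20. Acetylcholine receptor and denervation genes had a level of 1.47 in library 20, 0.08 to 0.70 in the other TKO libraries and -0.13 to 0.10 in floxed libraries, and none of 21 passed. Chrna1, the adult receptor's alpha subunit, had 75.9 ± 81.7 CPM in TKO and 16.5 ± 3.92 CPM in floxed libraries (2.21 ± 0.54, adjusted p = 0.0663). Muscle fibre markers had a level of -0.84 in library 20, -0.42 to 0.23 in the other TKO libraries and -0.19 to 0.23 in floxed libraries. Tendon and adipocyte markers had median fold changes of -0.72 and -0.71, and none of them passed. The summed CPM of the adipocyte markers went the other way, with 2013 to 3129 in TKO and 1484 to 1997 in floxed libraries, most of it from Car3, which muscle fibres also express (2337 CPM on average in TKO and 1530.5 CPM in floxed libraries, adjusted p = 0.642). Extracellular matrix genes had a level of 1.75 in library 20, and the median of their fold changes was 0.38 with all libraries and -0.03 without libraries 6 and 20.

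**Figure D3:**
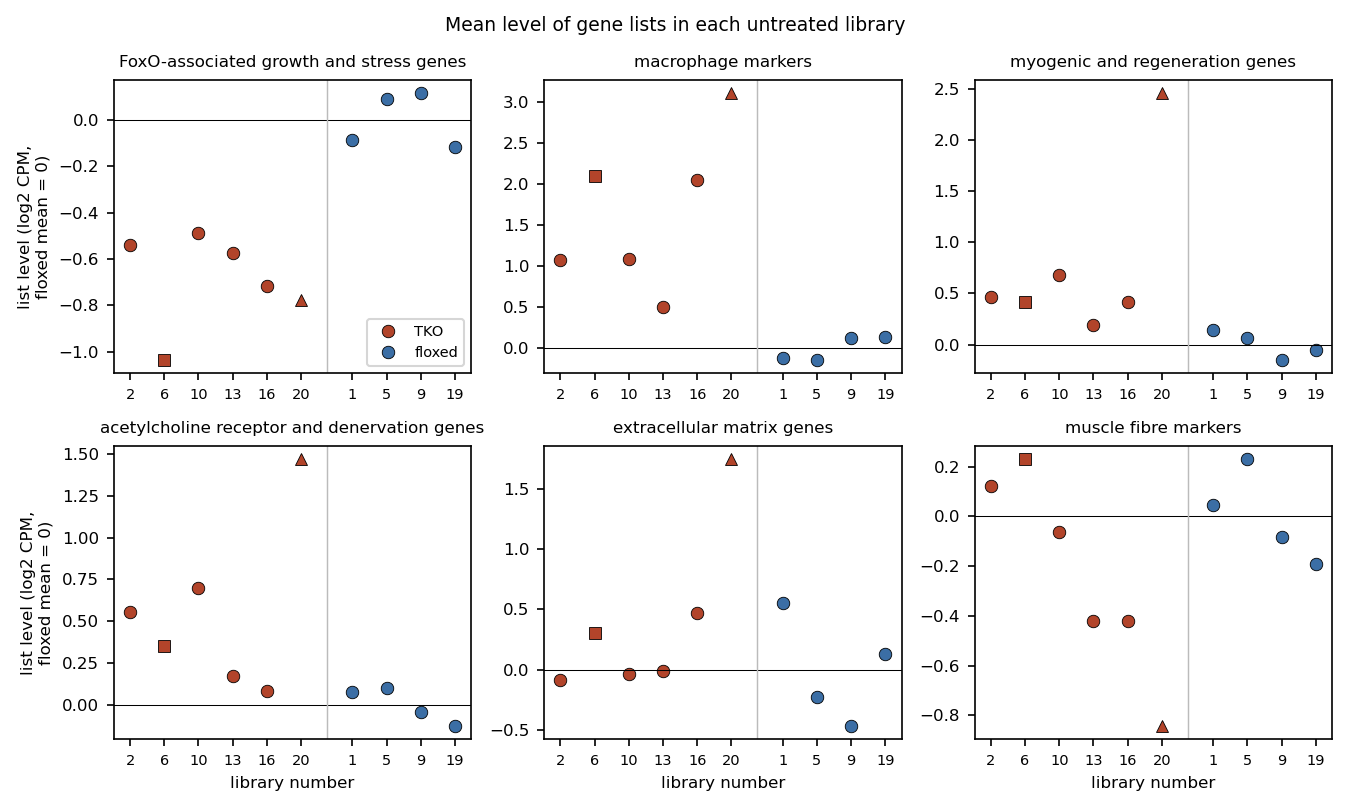
Mean log2 CPM of 6 gene lists in each untreated library, by library number, with the floxed mean of each gene set to 0; TKO libraries (red) left of floxed libraries (blue), the square is library 6 and the triangle library 20. FoxO-associated genes were below and macrophage markers above the floxed libraries in all 6 TKO libraries, whereas library 20 stood apart for the myogenic (2.46), acetylcholine receptor (1.47) and matrix lists (1.75).

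Genes widely associated with FoxO activity in other settings had mostly negative fold changes, although few passed the test. Of 22 such growth and stress genes, 21 were tested, 19 had negative fold changes and the median was -0.62, beside 0.00 over all tested genes. Pik3ip1 and Klf15 passed (2 of 21, against 0.363% of genes tested), none was raised past the threshold, and 8 were lower without overlap, against 2.61% of all tested genes. The list's mean level was -0.54, -1.04, -0.49, -0.57, -0.72 and -0.78 in TKO libraries and between -0.12 and 0.11 in floxed libraries. Each TKO library lay below each floxed library, and the median was -0.40 without libraries 6 and 20. Klf15, a transcription factor of amino acid and lipid metabolism that glucocorticoids induce, had 15.9, 16.2, 14.6, 18.8, 13.5 and 8.14 CPM in TKO libraries, against 33.1, 37.0, 40.8 and 23.3 CPM in floxed libraries. It fell by 1.22 ± 0.26 (adjusted p = 0.0289), and the adjusted p was 0.13 without floxed library 9. Cited2, a transcriptional coregulator, had 23.5 to 34.2 CPM in TKO and 37.2 to 66.8 CPM in floxed libraries (-0.83 ± 0.19, adjusted p = 0.0516). Sesn1, a stress-induced restrainer of mTORC1, had 24.0 to 35.8 CPM in TKO and 46.3 to 66.0 CPM in floxed libraries (-0.93 ± 0.24, adjusted p = 0.0757). Both were separate between the groups without passing the threshold. Pdk4, the kinase that shuts off pyruvate dehydrogenase in fasting, had 848, 680.0, 1018, 273, 227 and 212 CPM in TKO libraries, against 889.5, 1649, 1754 and 432 CPM in floxed libraries. It varied widely within both groups (-1.12 ± 0.45, adjusted p = 0.287). Irs2, an adaptor of the insulin receptor, had 34.3 CPM in library 13, 6.83 to 11.4 CPM in the other TKO libraries and 13.1 to 33.4 CPM in floxed libraries (-0.71 ± 0.52, adjusted p = 0.698). Cdkn1a, a cell cycle inhibitor that FoxO factors activate in other cells, had 45.1 to 181 CPM in TKO and 28.6 to 54.0 CPM in floxed libraries, with library 20 the highest (1.21 ± 0.59, adjusted p = 0.446).

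None of 22 ubiquitin ligases and related genes of muscle atrophy passed the test, although 20 had negative fold changes (median -0.22). Over all tested genes 0.514% passed and 49.5% had negative fold changes. The absence of calls therefore says nothing particular about this list or the other lists here. Trim63 had 394, 395, 409, 367, 309.6 and 170.0 CPM in TKO libraries, against 588, 1242, 1273 and 436 CPM in floxed libraries. The groups were separate, with a wide spread in floxed libraries (-1.38 ± 0.67, adjusted p = 0.442). Psme4, a proteasome activator, had 361 ± 121 CPM in TKO and 721 ± 157 CPM in floxed libraries (adjusted p = 0.0913, no overlap). Zfand5, a ubiquitin-binding activator of the proteasome that is outside this list, passed with 157 ± 50.2 CPM in TKO and 323 ± 53.3 CPM in floxed libraries (-1.04 ± 0.23, adjusted p = 0.0394, and 0.161 without floxed library 9). None of 31 proteasome subunits passed, and their median was 0.00. None of 40 autophagy genes passed, with a median of -0.15 that turned to 0.04 when libraries were scaled by total counts. That scaling moved the median of all tested genes to 0.18. Bnip3, a mitophagy receptor, had 51.9 to 124 CPM in TKO and 143 to 216 CPM in floxed libraries (-0.86 ± 0.35, adjusted p = 0.309), and the groups did not overlap. Of 35 lysosomal genes none passed, 31 were positive and the median was 0.39. The highest fold change among them was that of Ctss, cathepsin S (3.18 ± 0.80, adjusted p = 0.0772), which is also a macrophage marker, whereas cathepsin L (Ctsl) had 53.3 to 210.0 CPM in TKO and 82.2 to 110.1 CPM in floxed libraries (0.27 ± 0.32, adjusted p = 0.855). The sign of Ctsl turned without libraries 6 and 20.

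In the lists of metabolic genes at most 1 member passed, where 0.514% of all tested genes did, and counts this small say nothing particular about the lists. None of 35 genes of fatty acid oxidation and ketone use passed, 31 were negative and their median was -0.32. None of 22 genes of branched-chain amino acid breakdown passed (20 negative, median -0.30), and none of 22 genes of the citric acid cycle and pyruvate dehydrogenase (20 negative, median -0.19). These medians were -0.16, -0.24 and -0.09 without libraries 6 and 20. Of 38 genes of glucose uptake, glycolysis and glycogen only Pfkfb3 passed, and the list's median of -0.07 turned to 0.01 without libraries 6 and 20 and to 0.09 with scaling by total counts. Of 12 genes of polyamine metabolism Odc1 passed, and Amd1, the enzyme that supplies the aminopropyl donor, had 152 ± 71.7 CPM in TKO and 516 ± 142 CPM in floxed libraries without overlap (-1.76 ± 0.46, adjusted p = 0.0891). Smox, spermine oxidase, had 78.8 ± 27.7 CPM in TKO and 216 ± 40.9 CPM in floxed libraries, also without overlap (-1.46 ± 0.45, adjusted p = 0.143). None of 33 genes of insulin, PI3K, Akt and mTOR signalling passed (median -0.18). That list does not hold Pik3ip1 and Castor2, which did pass. The insulin receptor gene Insr had 106 ± 34.3 CPM in TKO and 164 ± 7.56 CPM in floxed libraries (-0.63 ± 0.31, adjusted p = 0.446).

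**Figure D4:**
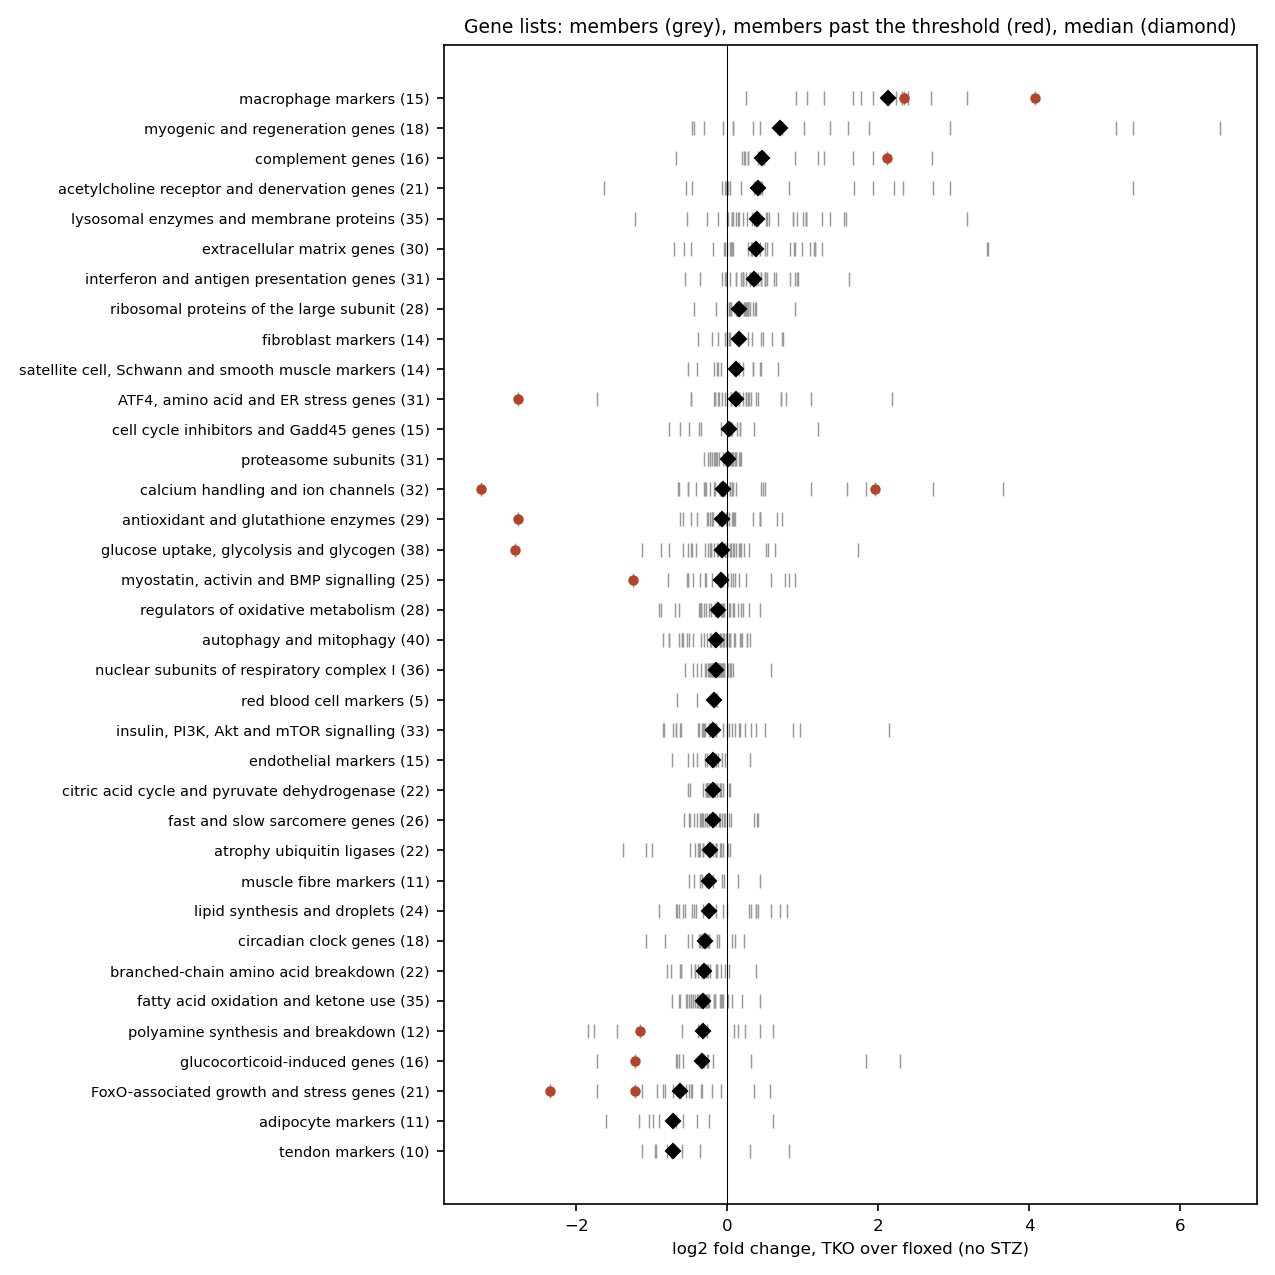
Log2 fold changes, TKO over floxed without STZ, of the tested members of 36 gene lists (grey ticks), with members past an adjusted p of 0.05 in red and the list median as a diamond; the number of tested members follows each name. Macrophage markers had a median of 2.13 and FoxO-associated genes one of -0.62; tendon (-0.72) and adipocyte markers (-0.71) lay lower still, with no member past the threshold.

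The library codes in the titles form 6 runs, which the labels do not call batches, and 4 runs held 1 TKO and 1 floxed library each. Within each of these runs the TKO library differed from its floxed library in the direction of the call for all 65 genes, which the choice of the genes from these same libraries largely fixed. For Pik3ip1 the differences in log2 CPM were -1.70, -2.86, -2.07 and -2.37, for Tspan8 -2.87, -3.33, -4.26 and -5.76, and for Mpp3 1.33, 1.03, 1.88 and 1.35. For Fbxo32 they were 0.04, -2.33, -0.76 and -1.45, so its difference was absent in the first run. With the run as a block 92 genes passed, 58 of them among the 65 (40 of the 46 lowered and 18 of the 19 raised). The 7 genes that lost the call were Tmem140, Dpysl5, Mpeg1, Zfyve9, Sorbs2, Snph and Lin52.

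Diabetic muscle gave a second measurement in other libraries. STZ TKO and STZ floxed libraries share no sample with the untreated groups, but stand in the same fit and in the same runs of library codes. There 619 genes passed (4.89%), 313 of them higher (2.47%) and 306 lower (2.42%) in STZ TKO muscle. Of the 65 genes, 58 passed in the same direction (43 lower and 15 higher), which is 89.2% of the genes called without STZ and 9.37% of those called under STZ. The sign was the same for 64 of the 65. The lowered genes had a median log2 fold change of -1.64 under STZ, beside -1.53 without, and the raised genes one of 1.75, beside 2.12 without. The absolute fold change was larger under STZ for 32 of the 65 genes, and for 55 genes the log2 fold changes lay within 1 of each other. Foxo4 (-4.67 ± 0.22), Pik3ip1 (-2.38 ± 0.21), Tspan8 (-3.56 ± 0.43) and Slc43a1 (-2.22 ± 0.23) had fold changes under STZ close to those without it. The 7 genes that did not pass under STZ were Gm38158, Ankrd23, Lin52, Atp9a, Lcp2, B4galnt1 and Chrna9.

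**Figure D5:**
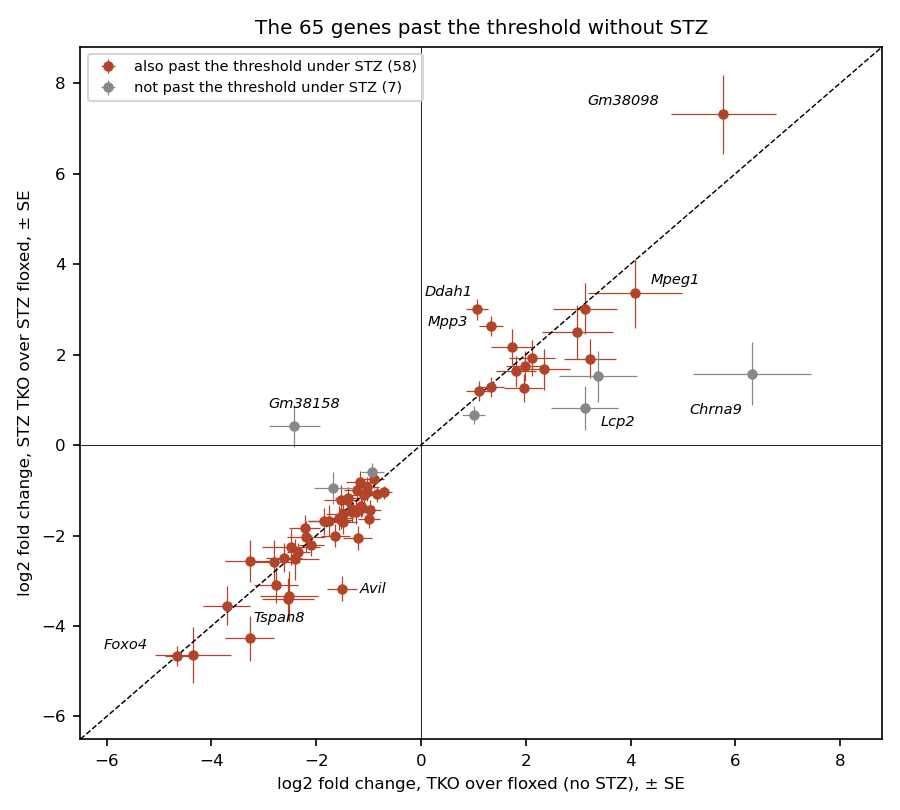
Log2 fold change, STZ TKO over STZ floxed (vertical) against TKO over floxed without STZ (horizontal), for the 65 genes past the threshold without STZ; error bars are SE, red points also passed under STZ (58), grey points did not (7), and the dashed line marks equal values. Most points lie near the line; Ddah1 (1.07 without and 3.00 with STZ) lies above it, and Gm38158 and Chrna9 lie far from it without passing the test of the difference.

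The knockout effect itself differed with STZ for 1 gene, Ddah1 (0.0079% of genes tested, and 493 genes at an unadjusted p under 0.05). Ddah1 had 19.0, 22.1, 19.2, 33.0, 20.4 and 16.3 CPM in STZ TKO libraries, against 3.36, 1.94, 3.25, 1.82 and 2.78 CPM in STZ floxed libraries, a log2 fold change of 3.00 ± 0.22 (adjusted p = 1.52e-08). The difference from the effect without STZ was 1.92 ± 0.30 (adjusted p = 0.0179). The STZ TKO values overlapped the TKO values, and all STZ floxed values lay below the floxed values of 8.78 to 12.8 CPM. This call was lost when the run was a block, and without any 1 of the libraries 5, 7, 10, 17, 19 and 21, and without libraries 6 and 20 together. Mpp3 had 2.63 ± 0.23 under STZ and 1.33 ± 0.22 without (difference 1.29 ± 0.30, adjusted p = 0.502), and Avil, an actin-binding protein of the villin family, had -3.18 ± 0.28 and -1.51 ± 0.29 (difference -1.67 ± 0.40, adjusted p = 0.532). Chrna9 had a log2 fold change of 1.58 ± 0.70 under STZ (adjusted p = 0.217), and its difference from the untreated effect did not pass either (adjusted p = 1). Among the FoxO-associated genes 7 of 21 passed under STZ, all lower, against 2.42% of genes tested, and the list's median was -0.77. Cited2 (-1.44 ± 0.18, adjusted p = 4.39e-05) and Sesn1 (-1.66 ± 0.22, adjusted p = 7.1e-05) were among them. The effect with STZ minus that without was -0.61 ± 0.27 for Cited2 and -0.73 ± 0.33 for Sesn1. Neither passed the test of the difference (adjusted p = 0.9996 for both), which does not show that the effects were equal.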

How the data were processed

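The authors deposited raw read counts per Ensembl gene for 21 libraries of mouse hindlimb muscle, 46071 genes in all. Per the submitters' processing notes STAR, featureCounts and the genome GRCm38.p4 were used; their versions, the annotation and the strand setting are not stated in these sources. Per the labels' protocols the libraries came from a directional kit, and antisense partners may still share reads. Symbols came from GENCODE M21 (45143 identifiers; those without one held 0.0533% of counts).

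Counts were tested in R 4.3.3 with edgeR 4.0.16 (TMM, filterByExpr, robust quasi-likelihood F test, two-sided), with 4 group means over the 21 libraries and Benjamini-Hochberg adjustment over 12658 tested genes at 0.05. The SE is the absolute log2 fold change divided by the square root of F. CPM used TMM-adjusted library sizes. List levels used log2 CPM with a prior count of 2. The biological coefficient of variation was 0.325. Alternatives were DESeq2 1.42.0, other scalings, no low-count filter, each library left out, the run of library codes as a block and the untreated libraries alone. On simulated counts (12499 genes, TKO against floxed) the test recovered 93% of genes changed by log2 2 and 43% of those changed by log2 1, and 7.48% of its calls were false.

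The libraries, gene lists and tests were chosen with earlier results of these data known. Named genes are the FoxO genes, the 14 lowest and the 14 highest fold changes past the threshold (mean log2 CPM of at least 0, no predicted models or sex-linked genes), list members past the threshold and 16 core genes. Other genes in the text, among them Nadk2, Sort1, Zfand5, Psme4, Amd1 and Gm38098, were chosen after their values were seen. No pair of libraries of 1 group agreed within sampling noise (lowest chi-square per degree of freedom 8.61 over 21 pairs). Intervals on counts cover counting error only.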

Additional observations from a re-analysis of the deposited data

Results flagged for a closer look

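Among 176 sets of values (genes and list levels, in TKO or floxed libraries), 21 held a library far from the others of its group by Dixon's criterion. Chance gives about 1 in 20 for independent, normally spread values. These sets are neither, since some lists share genes and CPM values are skewed, so the number flagged cannot be set against that rate. Btnl7-ps in TKO and Chrna9 in floxed libraries were flagged because all other libraries of the group had 0. Of these, 14 were in TKO libraries, 8 of them in library 20 and 4 in library 6. In library 6, Foxo1 was low at 7.00 CPM (14.1 to 17.7 in the other TKO libraries) and Fbxo30, a ubiquitin ligase of atrophy, at 11.1 CPM (18.8 to 23.3). Slc43a1 was high there at 9.58 CPM (5.36 to 6.68), and the level of insulin, PI3K, Akt and mTOR genes was -0.57 (-0.16 to 0.06).

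In library 20, Chrna9 was high at 16.4 CPM (0.722 to 6.56 in the other TKO libraries). The levels of myogenic and regeneration genes (2.46, against 0.19 to 0.68), extracellular matrix genes (1.75, against -0.09 to 0.47) and cell cycle inhibitors (0.17, against -0.23 to -0.08) were high. Those of autophagy (-0.49, against -0.21 to -0.10), polyamine (-0.77, against -0.52 to -0.42), glucose (-0.83, against -0.22 to 0.06) and branched-chain amino acid genes (-0.70, against -0.32 to -0.25) were low. Irs2 was high in library 13 at 34.3 CPM, and Btnl7-ps was detected only in library 16 among the TKO libraries, at 0.313 CPM.

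Among floxed libraries, library 5 was high for Pik3ip1 at 82.7 CPM (39.9 to 43.8 in the others), for Ccrl2 at 12.3 CPM (9.89 to 10.0) and for the level of regulators of oxidative metabolism at 0.11 (-0.04 to -0.03). Library 1 was low for Lrrc2 at 107 CPM (168 to 173) and high for Stbd1 at 78.4 CPM (54.7 to 58.4). Chrna9 was detected only in library 9 at 0.172 CPM, and the level of the FoxO genes was lowest in library 19 at -0.23 (0.07 to 0.09).

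Ddah1 was the gene whose knockout effect differed with STZ by the test of the difference, by 1.92 on the log2 scale.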

How the results depend on the processing

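The call of 65 genes in TKO muscle (619 under STZ, 1 for the difference of effects) became 347 (217 higher, 130 lower), 986 and 4 with DESeq2, which called all 65. Scaling by total counts gave 42 genes (16 higher, 26 lower) and 2 for the difference, and no filter on low counts also gave 2. With the run as a block the counts were 92 (29 higher, 63 lower), 1068 and 0. The 10 untreated libraries alone gave 88, with 50 of the 65 among them. Leaving out each library in turn gave 32 to 105, 380 to 780 and 0 to 2. Under STZ the counts were 407 without STZ floxed library 7 and 380 without STZ floxed library 21.

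Chosen after seeing the data, leaving out libraries 6 and 20 gave 27 genes (7 higher, 20 lower) and 0 for the difference, and the 4 runs with both groups alone, with the run as a block, gave 334 (181 higher, 153 lower). The causes were not tested. A set of 19 genes kept its call in all 29 settings. The log2 fold change of Slc2a4 was between -0.199 and 0.034 with 1 library left out, and its sign turned with total counts (0.00236), without TKO library 20 (0.034) and without libraries 6 and 20 (0.029), and without those 2 libraries also that of Fbxo21 (0.030) and Ctsl (-0.043), none of them called.

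No paired analysis was possible because the replicate numbers in the titles are unique to each library; this concerns pairing by number, and the fits with the run as a block compare libraries within runs instead. Libraries of different groups in the same run deviated together only weakly, with a mean correlation of 0.159 over 26 pairs, against -0.0296 over 138 pairs in different runs. On simulated counts the test recovered 43% of genes changed by log2 1, so differences of that size may often have been missed. The simulated counts held no run effect. Libraries held 2951290 to 7687823 counts, and the part of depth was not tested.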

Other observations

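Of the 65 genes that passed, 9 (13.8%) lie on chromosome 3, which carries Foxo1 and holds 4.99% of the tested genes. The 9 include Foxo1 itself, and 6 of them lie much farther from it (Kcnab1, Tiparp, Prune1, Sort1, Egf and Ddah1). The processed pseudogene Gm38098, which was raised, lies 72.2 kb from Foxo1, and Setd7, which was lowered, lies 707.5 kb from it. The background of the mice was mixed, and the controls were littermates with the same floxed alleles. The strain of origin of the alleles near Foxo1 is not given in the labels.

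Interferon and antigen presentation genes had positive fold changes for 26 of 31 tested members (median 0.36), and none passed. Their levels overlapped, with -0.26 to 0.76 in TKO and -0.15 to 0.21 in floxed libraries, and their median under STZ was -0.42. Complement genes had positive fold changes for 15 of 16 (median 0.46), with Masp1 the member that passed (1 of 16, against 0.15% of genes tested in this direction). Over all tested genes 49.5% had negative fold changes. Masp1 lies opposite Rtp4, and reads of both strands may not be told apart. Circadian clock genes were negative for 15 of 18 tested members (median -0.30), and none passed, where 0.514% of all tested genes did. Their levels overlapped as well, with -0.78 to 0.04 in TKO libraries, lowest in libraries 6 and 20, and -0.10 to 0.13 in floxed libraries.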
